A study of Homo sapiens and Homo sapiens
Mus musculus and Mus musculus with 200 samples.

Results

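The loci of 39 collagen and extracellular matrix genes were examined for the active chromatin mark H3K27ac and for binding of TWIST1 and other factors in human cranial neural crest cells (hCNCC), the migratory embryonic cells that give rise to much of the facial skeleton and connective tissue. Each locus was the set of open chromatin regions (ATAC-seq peaks, called rows here because each is 1 row of a count table) within 100 kb of a GENCODE transcript start of the gene, and a row near several listed genes went to the nearest. This gave 1218 rows of 213151 in the tables: 117 promoter rows, within 1000 bp of a start of the gene, and 1101 distal rows. Any annotated transcript start counted, including starts inside the gene, so a promoter row need not lie at the gene's outermost start. A gene had 12 to 56 rows, with a median of 29, against a median of 22 over 19813 protein-coding genes with a row. In all, 93 distal rows lay at the start of another gene, and a distal row need not act on the gene it is listed under.

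The cells were differentiated from the H9 human embryonic stem cell line and plated on human fibronectin. H3K27ac was measured by ChIP-seq in 6 lines at 0 h, 3 h and 24 h of dTAGV-1 (500 nM), a compound that triggers degradation of a tagged protein, with 2 replicates in each of the 18 groups. The lines were unedited cells (WT), TWIST1FV, ALX1FV, ALX1FV ALX4- (which also lacks ALX4), PRRX1FV and MSX1FNV, each edited line being named for the factor that carries the degradation tag. Both TWIST1FV replicates came from clone c64, both MSX1FNV replicates had the same clone label, and in ALX1FV, ALX1FV ALX4- and PRRX1FV each replicate was its own clone, so a difference between 2 lines may belong to a clone. The TWIST1FV and WT samples, and no others, carried spike-in chromatin from mouse O9-1 cells, which was not used for scaling here. TWIST1, AP2a and V5 (the tag of the homeodomain factors) peak lists came from untreated or treated hCNCC, and further TWIST1 lists from RS4;11, a lymphoblast line, and from HEK293, an embryonic kidney line, transfected with plasmids for V5-TWIST1(WT) with or without ALX4-Flag. The 36 H3K27ac libraries held 5137169 to 9173063 counts, of which 0.635% to 0.781% fell in the matrix gene rows. Nothing in the labels says whether same-numbered replicates were separate differentiations, so p-values measure the spread between these samples.

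Collagens, laminins, fibrillins and proteoglycans are secreted and assembled outside the cell into the fibres and sheets that mesenchymal cells migrate on and later mineralise. TWIST1 is a basic helix-loop-helix factor that binds E-box sequences, and it is known for its role in the mesenchymal character of cranial neural crest and in craniosynostosis. ALX1, ALX4, PRRX1 and MSX1 are homeodomain factors of facial mesenchyme, and AP2a is a neural crest and ectoderm factor. H3K27ac marks active promoters and enhancers, so its level near a gene is a measure of regulatory activity and not of the gene's RNA.

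Of the 1218 matrix rows, 306 (25.1%) overlapped a TWIST1 peak in both WT 0 h replicates, against 19.8% of all rows, and these are called TWIST1-bound. TWIST1 peaks lay over 44 of the 117 promoter rows (37.6%) and 262 of the 1101 distal rows (23.8%). Of the 39 genes, 38 had a TWIST1-bound row (97.4%, against 88.7% of all genes with a row), and 24 had one at a promoter (61.5%, against 32.2%). THBS1, which encodes the matricellular protein thrombospondin 1, was the gene with none. FBN1 (fibrillin 1, the main microfibril protein) had 18 bound rows, PAPPA (a secreted protease of insulin-like growth factor binding proteins) and LAMA4 (a laminin chain of basement membranes) had 17 each, and COL1A1, DCN and FBLN1 had 14 each. AP2a peaks found with both antibodies overlapped 140 rows (11.5%, against 9.10% of all rows), and 80 rows had both factors (6.57%, against 4.13%). V5 peaks were few. The ALX1FV lists overlapped 18 rows of 12 genes, the ALX1FV ALX4- lists 26 rows of 17 genes and the MSX1FNV lists 5 rows, and every one of these rows was TWIST1-bound. So were nearly all V5 rows over the whole genome that passed a filter on low counts in TWIST1FV. These were 1502 of 1518 for ALX1FV, 1574 of 1582 for ALX1FV ALX4- and 275 of 291 for MSX1FNV. At LAMA4 the first ALX1FV list held 3 V5 peaks, and the ALX1FV ALX4- lists held 4 and 3. The PRRX1FV lists, which held 2 and 1 peaks in all, had none at these loci.

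Sequences were read at the TWIST1 summits (hg38, plus strand, shown 5′ to 3′). Words of 2 kinds were searched on both strands. The E-box words were CAGATG with its reverse complement CATCTG, as well as the palindromes CAGCTG and also CATATG. The homeodomain words were TAATTA, a palindrome, and TAATTG with its reverse complement CAATTA. A composite is an E-box word and a homeodomain word with 4 bases between them, in either order. Within 100 bp on either side of the summits of 305 TWIST1 sites at matrix loci, 226 held an E-box word (74.1%, against 67.5% of all 42318 sites), while 24.3% of windows set 1000 bp to the side of all sites did. A homeodomain word was in 22.3% of the windows at matrix loci and in 25.3% at all sites. A composite was in 7 windows (2.30%, against 2.71% of all sites and 0.0520% of windows 1000 bp away), and median GC content was 46.3% against 44.8%. Both composites that lay in falling rows are shown, with the words of the composite in capitals: COL11A1 from chr1:102858850-102858913, intergenic, 20907 bp from a start, and FBN1 from chr15:48493634-48493697, in an exon of FBN1. The 121-bp windows around the summits at rows described below follow, chosen after their values were seen: PAPPA chr9:116251783-116251903 (intron), FBLN1 chr22:45454479-45454599 (intergenic), COL12A1 chr6:75052612-75052732 (intergenic), LUM chr12:91056649-91056769 (within KERA), NID1 chr1:236016371-236016491 (intron), LAMA4 chr6:112149884-112150004 (promoter row at a transcript start inside the gene) and COL8A1 chr3:99690756-99690876 (intron). The windows of FBLN1, COL12A1, LUM, NID1 and LAMA4 lie in rows that fell after TWIST1 depletion, that of PAPPA lies between 2 rows that fell, and that of COL8A1 lies in a row that rose. Every word found in them is in capitals.
COL11A1 composite: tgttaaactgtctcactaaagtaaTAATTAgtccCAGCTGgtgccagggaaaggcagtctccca
FBN1 composite: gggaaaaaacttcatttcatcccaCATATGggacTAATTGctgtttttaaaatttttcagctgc
PAPPA: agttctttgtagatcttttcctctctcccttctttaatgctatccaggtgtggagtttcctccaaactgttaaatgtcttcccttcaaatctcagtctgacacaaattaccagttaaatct
FBLN1: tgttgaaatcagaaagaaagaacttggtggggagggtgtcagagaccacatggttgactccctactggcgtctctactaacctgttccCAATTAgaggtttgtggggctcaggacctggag
COL12A1: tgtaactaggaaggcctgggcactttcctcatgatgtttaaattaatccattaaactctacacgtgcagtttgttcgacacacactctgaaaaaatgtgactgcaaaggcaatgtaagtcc
LUM: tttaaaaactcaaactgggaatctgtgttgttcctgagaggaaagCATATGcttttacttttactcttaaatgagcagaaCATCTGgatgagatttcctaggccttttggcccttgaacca
NID1: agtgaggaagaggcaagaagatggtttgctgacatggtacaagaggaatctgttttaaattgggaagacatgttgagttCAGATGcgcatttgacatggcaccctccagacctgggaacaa
LAMA4 promoter: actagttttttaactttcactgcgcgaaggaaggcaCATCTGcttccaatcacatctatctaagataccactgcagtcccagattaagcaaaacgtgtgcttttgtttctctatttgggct
COL8A1: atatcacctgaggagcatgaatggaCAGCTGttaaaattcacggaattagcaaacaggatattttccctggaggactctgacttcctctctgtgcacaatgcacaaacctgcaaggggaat
The LUM window held 2 E-box words, CATATG and CATCTG, and the NID1, LAMA4 and COL8A1 windows 1 each. FBLN1 held a homeodomain word and no E-box word of the search, and the PAPPA and COL12A1 windows held neither, which says only that those letters were not in these 121 bases. The PAPPA and LUM summits lay outside the rows named for them. Of the 7 tested TWIST1-bound matrix rows with a composite, 2 fell at 24 h, those of COL11A1 and FBN1 shown above, against 274 of 888 such rows among all rows (30.9%).

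Depletion was checked first, from the TWIST1 peaks themselves. In TWIST1FV, 14 of 249 peaks at matrix loci in replicate 1 and 11 of 211 in replicate 2 had a peak at the same place at 3 h, a mean of 5.42% ± 0.289 (SD, n = 2). In WT, 326 of 417 and 284 of 339 were kept, a mean of 81.0% ± 3.96 (SD, n = 2). The lines did not overlap, with a difference of -75.6 percentage points (exact permutation test, two-sided, p = 0.33, the smallest that 2 against 2 can give). Over all peaks the shares were 2.69% and 79.3%. The peaks still listed at 3 h in both TWIST1FV replicates were at COL1A1, COL6A2, ELN, FBLN1, NID1, NID2 and PAPPA. Their deposited fold enrichments at 3 h reached 28.5 at the NID2 promoter, and were 21.5 and 17.2 at ELN.

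**Figure D1:**
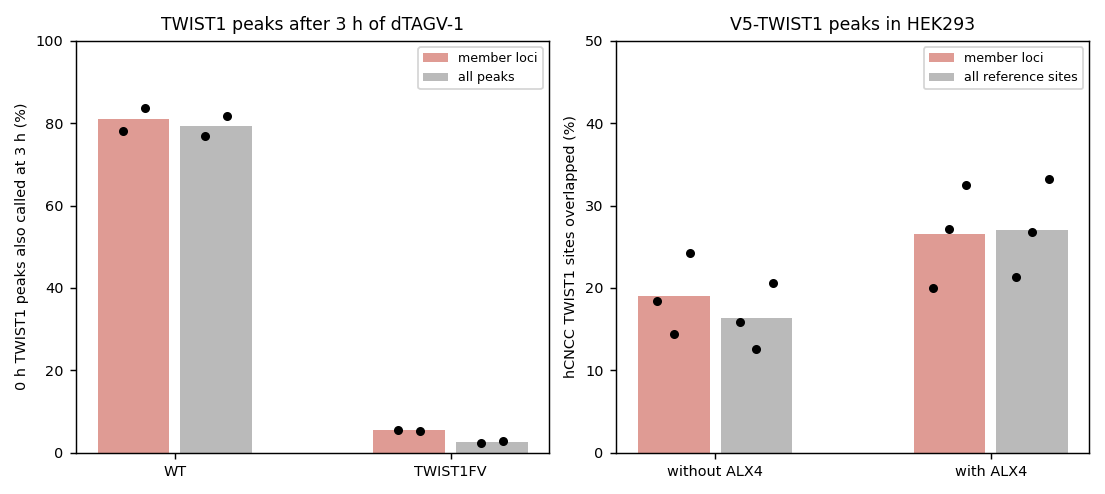
Share of TWIST1 peaks at matrix gene loci, in percent. Left, 0 h peaks with an overlapping peak at 3 h in TWIST1FV and WT; right, hCNCC sites overlapped in HEK293 without and with ALX4. Bars are means and points are replicates; the TWIST1FV replicates sit at 5.62% and 5.21%, below both WT replicates at 78.2% and 83.8%.

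TWIST1 depletion lowered H3K27ac at many matrix loci within 3 h. Of 857 matrix rows that passed the filter on low counts, 55 fell and 4 rose at 3 h, and 109 fell and 19 rose at 24 h (edgeR quasi-likelihood test, Benjamini-Hochberg adjusted p under 0.05 over all rows). The other 361 rows had too few counts to be tested. In bulk samples, fewer cells of a type and less H3K27ac per cell cannot be told apart. At 3 h 6.42% of the tested matrix rows fell, while over all 123361 rows 5.29% were called, 1.01% higher and 4.28% lower. At 24 h 12.7% fell, while over all rows 13.8% were called, 4.28% higher and 9.49% lower. The median log2 change of matrix rows was -0.13 at both times, against 0.02 and 0.03 over all rows. Of the 55 rows lower at 3 h, 54 were also lower at 24 h, 3 of the 4 higher ones were also higher, and none changed sides. Both times were set against the same 0 h libraries in the same fit, so their calls are not independent. The same overlap over all rows is not given here. Left without 0 h replicate 1, the fit called 35 rows at 3 h, and without 24 h replicate 2 it called 81 at 24 h. Scaled by library size alone, which moved the median of all rows to 0.16 at 24 h, 96 fell and 33 rose.

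Nearly all rows that lost H3K27ac were TWIST1-bound in WT cells at 0 h: 52 of the 55 at 3 h (94.5%, against 94.9% of all falling rows) and 102 of the 109 at 24 h (93.6%, against 92.1%). Binding was scored from WT and not from TWIST1FV peaks. By peaks in both TWIST1FV 0 h replicates, 209 of the 1218 matrix rows (17.2%) were bound, against 306 by WT peaks. Among 289 tested TWIST1-bound matrix rows, 18.0% fell at 3 h and 35.3% at 24 h, with median log2 changes of -0.62 and -0.87. Bound rows over the whole genome gave 13.4% and 28.9%, with medians of -0.51 and -0.73. Among 568 unbound matrix rows, 3 fell and 2 rose at 3 h, and 7 fell and 15 rose at 24 h, with medians of 0.08 and 0.12. Of all 123361 tested rows, 37359 were bound and the rest unbound. At 3 h 5012 of all 5279 falling and 246 of all 1241 rising rows were bound. At 24 h these were 10786 of 11706 and 843 of 5276. Whether unbound matrix rows differ from all unbound rows was not tested. Of the 19 rows that rose at 24 h, 4 were bound (21.1%, against 16.0% of all rising rows). The 80 tested rows with both TWIST1 and AP2a had 21 falling at 24 h (26.3%, against 23.2% of all such rows) and a median of -0.39 (against -0.16), and the 209 with TWIST1 and no AP2a had 81 falling (38.8%, against 30.6%) and a median of -1.05 (against -0.91). None of the 57 rows with AP2a and no TWIST1 fell, and 2 rose, counts given without the share over all such rows. The difference between bound rows with and without AP2a was not tested.

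**Figure D2:**
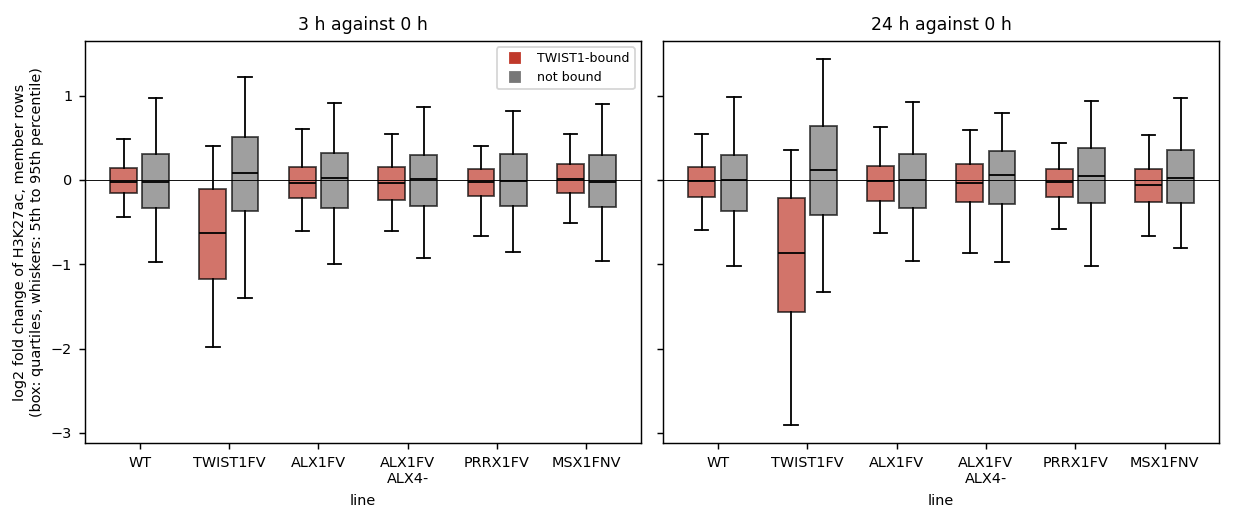
Log2 change in H3K27ac of matrix gene rows at 3 h and 24 h against 0 h in each of the 6 lines, for rows with and without a TWIST1 peak. Boxes span the quartiles with the median as a line and whiskers reach the 5th and 95th percentiles; the TWIST1-bound boxes of TWIST1FV, with medians of -0.62 and -0.87, lie below 0 and those of the other lines lie near it.

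Promoter and distal rows were counted apart. Of 91 tested promoter rows, 6 fell at 3 h and 10 at 24 h, all 10 of them TWIST1-bound, and none rose at 24 h. Of 766 distal rows, 49 fell and 4 rose at 3 h, and 99 fell and 19 rose at 24 h. Over all rows near a gene start, 970 of 25294 fell at 24 h (3.83%), against 10.9% of rows farther away. The difference between the 2 kinds of row was not tested.

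By gene, 35 of the 39 had a called row at 24 h (89.7%), when 60.0% of 19196 protein-coding genes with a tested row in the same window had one. A falling row was found in 32 genes (82.1%, against 44.4%), a rising row in 12 (30.8%, against 29.6%) and both in 9. The matrix loci held more rows at the median (29 against 22), whose part in these shares was not tested, and a row near several of the other genes counts for each. LAMB1, COL8A1 and LOX had rising rows only, and SPARC, THBS1, FBLN5 and LAMC1 had no called row. At 3 h a falling row was found in 22 genes (56.4%, against 22.7%). The 12 genes with the most called rows at 24 h held 73 of the 128. LUM, a small leucine-rich proteoglycan that spaces collagen fibrils, had 9 falling rows of 11 tested, PAPPA 8 of 31, and COL5A1, FBLN1 and NID1 6 each. Neighbouring rows are not independent: 4 of the PAPPA rows lay next to each other in 1 intron, and 4 of the LUM rows lay within KERA, the neighbouring proteoglycan gene.

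**Figure D3:**
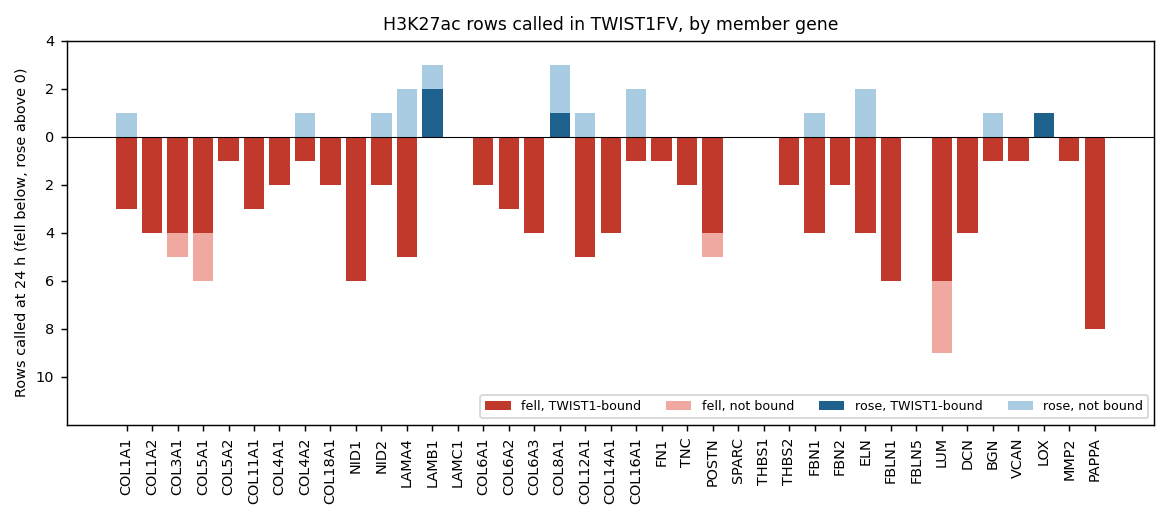
Number of rows at each of the 39 loci that fell (below 0) or rose (above 0) at 24 h in TWIST1FV, split by whether WT cells had a TWIST1 peak there. LUM and PAPPA reach 9 and 8 falling rows, and LAMB1 and COL8A1 show 3 rising rows and no falling row.

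All 6 fibrillar collagen genes, which encode the chains of the load-bearing fibrils, had falling rows at 24 h: 22 of 155 tested rows fell and 1 rose, after 9 falls at 3 h. Over all rows 4.28% fell at 3 h, and 9.49% fell and 4.28% rose at 24 h. A falling row at 24 h was found in 44.4% of all genes with a tested row. COL5A1, whose product starts fibril assembly, had 6 falling rows of 32, COL3A1, a collagen of loose connective tissue, 5 of 13, and COL1A2 4 of 27. COL1A1, with 48 tested rows, had 3 that fell and 1 that rose. The collagens of other kinds (beaded filaments, networks and fibril-associated forms) had 19 falling and 6 rising rows of 150, and 6 of these 7 genes had a fall. COL12A1 and COL14A1, which coat fibrils, had 5 and 4 falling rows, COL6A3 of the beaded filaments had 4, and COL8A1, a short-chain network collagen, had 3 that rose. The 8 basement membrane genes had 18 falling and 7 rising rows of 223 (11.2% called, below the 13.8% of all rows). NID1, which links laminin to collagen IV, had 6 of the falls and LAMA4 had 5, whereas LAMC1 had none and LAMB1 had 3 rises.

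The 5 elastic fibre genes had 16 falling and 3 rising rows of 120, of which FBLN1 had 6 falls and ELN and FBN1 4 each. The 4 proteoglycan genes had 15 falling rows and 1 rising row of 71, and LUM held 9 of the falls and DCN, its close relative, 4. The 6 adhesive and matricellular genes had 10 falling rows of 77 and no rise, with 5 at POSTN, which encodes periostin, 2 each at TNC and THBS2 and 1 at FN1, the fibronectin gene. The 3 enzyme genes had 9 falling rows and 1 rising row of 61, and PAPPA held 8 of the falls. MMP2, a gelatinase, had 1 falling row, and LOX, which cross-links collagen, had the rise. The shares called at 24 h ran from 11.2% in the basement membrane group to 22.5% in the proteoglycans, beside 13.8% of all rows. No group was tested against all rows.

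Counts summed over a locus gave the level of each gene's neighbourhood, in CPM (a library's counts scaled to a common total by TMM). In WT cells at 0 h the promoter sums, set per kb of row, were highest at VCAN (111 CPM per kb), which encodes the large proteoglycan versican, and at LUM (101), followed by COL1A2 (63.6), NID1 (53.7), FBLN1 (49.5), NID2 (49.2) and DCN (47.6). The lowest were COL8A1 (0.807) and THBS2 (0.380). Distal sums per kb were highest at LUM (33.9 CPM per kb), COL3A1 (33.4) and DCN (25.4), and lowest at THBS1 (1.61). COL3A1 and POSTN thus had strong distal signal beside promoter sums of 5.01 and 7.66 CPM and 2.26 and 2.76 CPM, when the median promoter sum over all genes was 17.7 CPM.

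Distal sums fell at 11 of 39 matrix genes and rose at 1 at 3 h, and fell at 13 and rose at 3 at 24 h (edgeR quasi-likelihood test on sums, adjusted over all genes). Over all 19559 genes, 13.5% of distal sums were called at 3 h (4.77% higher, 8.74% lower) and 19.6% at 24 h (6.88% higher, 12.7% lower). The median log2 change of the matrix genes was -0.30 at 3 h and -0.29 at 24 h, against 0.09 and 0.07 over all genes, and 31 of 39 were below 0 at 24 h (79.5%, against 40.8%). In WT cells no distal sum was called at 3 h or 24 h, where the share over all genes was 0%, and 1 matrix gene at each time had an unadjusted p under 0.05. Left without 0 h replicate 1, the fit called 7 distal sums at 3 h and 10 at 24 h, and without 24 h replicate 2 it called 10 at 24 h. Scaling by library size alone moved the median of all distal sums to 0.18 at both times and gave 9 falls and 2 rises at 3 h and 11 falls and 3 rises at 24 h, when the split over all genes at 24 h turned from 2479 lower and 1345 higher to 2093 lower and 3435 higher.

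**Figure D4:**
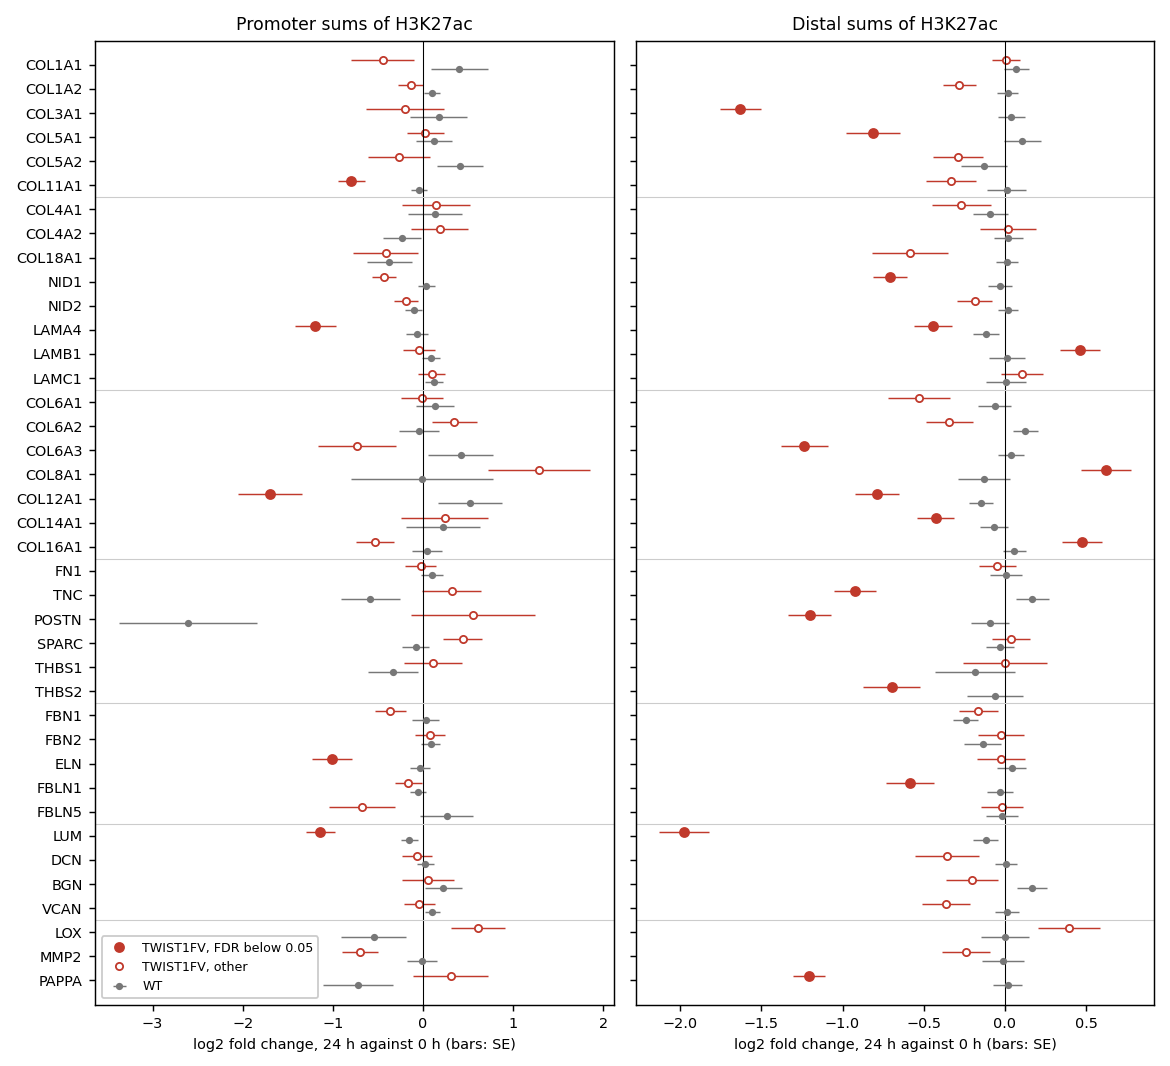
Log2 change (± SE) from 0 h to 24 h of summed promoter and distal H3K27ac at the 39 loci in TWIST1FV and WT. Filled TWIST1FV points passed an adjusted p of 0.05; they run from -1.98 (LUM) to 0.62 (COL8A1) among distal sums, and no WT point passed.

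The LUM distal sum fell the most. In TWIST1FV it was 229 and 190.3 CPM at 0 h, 87.6 and 72.7 CPM at 3 h and 57.1 and 48.9 CPM at 24 h, while the 6 WT libraries ran from 155 to 183 CPM. The treated libraries lay below every untreated and WT library, and the log2 change was -1.39 (SE 0.15, adjusted p = 3.3e-04) at 3 h and -1.98 (SE 0.15, adjusted p = 2.2e-05) at 24 h. At COL3A1 the distal sum was 267 and 252 CPM at 0 h, 89.3 and 113 CPM at 3 h and 85.5 and 81.5 CPM at 24 h, against 244 to 289 CPM in WT. Most of the drop was present at 3 h, with log2 changes of -1.37 (SE 0.13) and -1.63 (SE 0.13). PAPPA, the locus with the highest distal sum among those that fell by more than 1 on the log2 scale, had 375 and 389.8 CPM at 0 h, 176 and 196 CPM at 3 h and 167 and 163 CPM at 24 h. Every treated PAPPA library was below both untreated TWIST1FV libraries, which themselves lay below the WT range of 396 to 494 CPM, and the 24 h change was -1.21 (SE 0.10, adjusted p = 3.1e-05).

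POSTN, a periodontal and periosteal matrix protein gene, had a distal sum of 185 and 193 CPM at 0 h, 77 and 61.3 CPM at 3 h and 85.1 and 78.6 CPM at 24 h. Both treated times lay below the WT range of 140.1 to 191 CPM, with log2 changes of -1.46 (SE 0.14) at 3 h and -1.20 (SE 0.13) at 24 h. At COL6A3 the values were 163 and 194 CPM at 0 h, 92.9 and 100.0 CPM at 3 h and 66.2 and 85.3 CPM at 24 h, and the groups did not overlap (24 h log2 change -1.23, SE 0.14, adjusted p = 1.9e-04). TNC, the tenascin C gene, went from 70.4 and 70.1 CPM at 0 h to 35.3 and 38.5 CPM at 24 h (log2 change -0.92, SE 0.13, adjusted p = 6.7e-04). NID1 went from 363 and 367 CPM to 229 and 219 CPM at 3 h and 234 and 211 CPM at 24 h, with changes of -0.71 and -0.71. In these 3 genes too, every treated library was below every untreated one.

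Smaller declines were called at 24 h for COL5A1 (-0.81), COL12A1 (-0.79), THBS2 (-0.70), FBLN1 (-0.58), LAMA4 (-0.44) and COL14A1 (-0.43), all on the log2 scale with SE between 0.11 and 0.18. COL5A1 was at 121 and 106 CPM at 0 h, 103 and 75.2 CPM at 3 h and 68.3 and 59.6 CPM at 24 h, and the 3 h change did not pass (log2 -0.35, adjusted p = 0.18). NID2 passed at 3 h and not at 24 h, with log2 changes of -0.38 (adjusted p = 0.044) and -0.19 (adjusted p = 0.26). The COL14A1 and LAMA4 calls were lost without any 1 of the 4 libraries at 0 h and 24 h (log2 changes -0.50 to -0.31 and -0.51 to -0.33) and with library size alone (-0.31 and -0.33), and the FBLN1 and THBS2 calls without 0 h replicate 1 (-0.45 and -0.57) or 24 h replicate 2 (-0.43 and -0.58).

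Distal sums rose at COL8A1, COL16A1 and LAMB1. COL8A1 was at 26.5 and 27.2 CPM at 0 h, 24.1 and 22 CPM at 3 h and 44 and 38.4 CPM at 24 h, and both 24 h libraries were above the WT range of 24.4 to 32.8 CPM (log2 change 0.62, SE 0.15, adjusted p = 0.015). COL16A1, a fibril-associated collagen, was at 153 and 170.0 CPM at 0 h, 199 and 245 CPM at 3 h and 214 and 233 CPM at 24 h, with a change of 0.47 (SE 0.12, adjusted p = 0.019) at 24 h and 0.45 at 3 h. LAMB1, which encodes the laminin beta 1 chain, was at 98.1 and 81.3 CPM at 0 h, 104 and 112 CPM at 3 h and 125 and 121 CPM at 24 h (24 h change 0.46, SE 0.12, adjusted p = 0.024). Each of the 3 calls was lost in 3 of the 4 fits that left out 1 library. For COL8A1 these were the fits without either 0 h library (0.59 and 0.62 for replicates 1 and 2) or 24 h replicate 1 (0.54), for COL16A1 those without either 0 h library (0.38 and 0.53) or 24 h replicate 2 (0.45), and for LAMB1 those without 0 h replicate 2 (0.31) or either 24 h library (0.46 and 0.51). Among the sums that were not called, SPARC (0.04), ELN (-0.02), FN1 (-0.05), COL1A1 (0.01) and FBN1 (-0.16) changed by less than 0.2 on the log2 scale at 24 h, with SE up to 0.15.

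Promoter sums were called at 2 matrix genes at 3 h and 5 at 24 h, all lower, of 38 tested. Over all 15009 genes 1.53% were called at 3 h (0.76% higher, 0.773% lower) and 4.28% at 24 h (1.51% higher, 2.77% lower). The median log2 change of the matrix promoters was 0.01 at 3 h and -0.06 at 24 h, against 0.17 and 0.12 over all genes. In WT none was called at either time (0% of all genes), with 1 matrix gene at an unadjusted p under 0.05 each time. LUM promoter signal was 112 and 89.3 CPM at 0 h, 64.2 and 63.4 CPM at 3 h and 48.5 and 42.3 CPM at 24 h, in order and without overlap between times, and the 24 h change was -1.14 (SE 0.16, adjusted p = 2.4e-04). LAMA4 was at 44 and 39 CPM at 0 h, 18.7 and 15.9 CPM at 3 h and 13.1 and 23.3 CPM at 24 h, all treated libraries being below all untreated ones (3 h -1.26, SE 0.23, adjusted p = 0.0085; 24 h -1.19, SE 0.23, adjusted p = 0.0037). In TWIST1FV 0 h replicate 1, 19.7 and 12.7 CPM of the LAMA4 sum came from rows at a transcript start inside the gene.

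The other 3 promoters passed at 24 h alone. ELN, the elastin gene, went from 65.6 and 51.2 CPM at 0 h to 34.6 and 22.9 CPM at 24 h, a change of -1.01 (SE 0.22, adjusted p = 0.0093). An ELN row at a transcript start inside the gene held 46.7 and 35.2 CPM of the 0 h values. COL11A1, a minor fibrillar collagen of cartilage, went from 119 and 132 CPM to 65.3 and 79 CPM (-0.80, SE 0.15, adjusted p = 0.0035). COL12A1 went from 11 and 7.80 CPM to 2.33 and 3.44 CPM (-1.69, SE 0.35, adjusted p = 0.007), a weak promoter signal against the median of 17.7 CPM. In WT the COL12A1 promoter had 4.01 and 4.90 CPM at 0 h, below both untreated TWIST1FV libraries. It had 3.48 and 7.80 CPM at 3 h and 6.51 and 6.17 CPM at 24 h in WT. Calls were lost without 1 library for COL11A1 (0 h replicate 2, -0.74; 24 h replicate 1, -0.64), COL12A1 (0 h replicate 1, -1.45; 24 h replicate 1, -1.41), ELN (0 h replicate 1, -0.84; 24 h replicate 2, -0.71) and LAMA4 (24 h replicate 1, -0.81), and LUM passed in all 4 such fits. With 1 library left out the number called was 1 to 2 at 3 h and 3 to 4 at 24 h: at 3 h 1 was called without either 0 h library or without 3 h replicate 2, and at 24 h 3 were called without 0 h replicate 1 or 24 h replicate 1. The strongest matrix promoter, VCAN, was at 156 and 198 CPM at 0 h, 149.9 and 208 CPM at 3 h and 143 and 200.8 CPM at 24 h, with a change of -0.04 (SE 0.17) that did not pass. MMP2 (-0.70, adjusted p = 0.06) and NID1 (-0.44, adjusted p = 0.084) did not pass either.

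**Figure D5:**
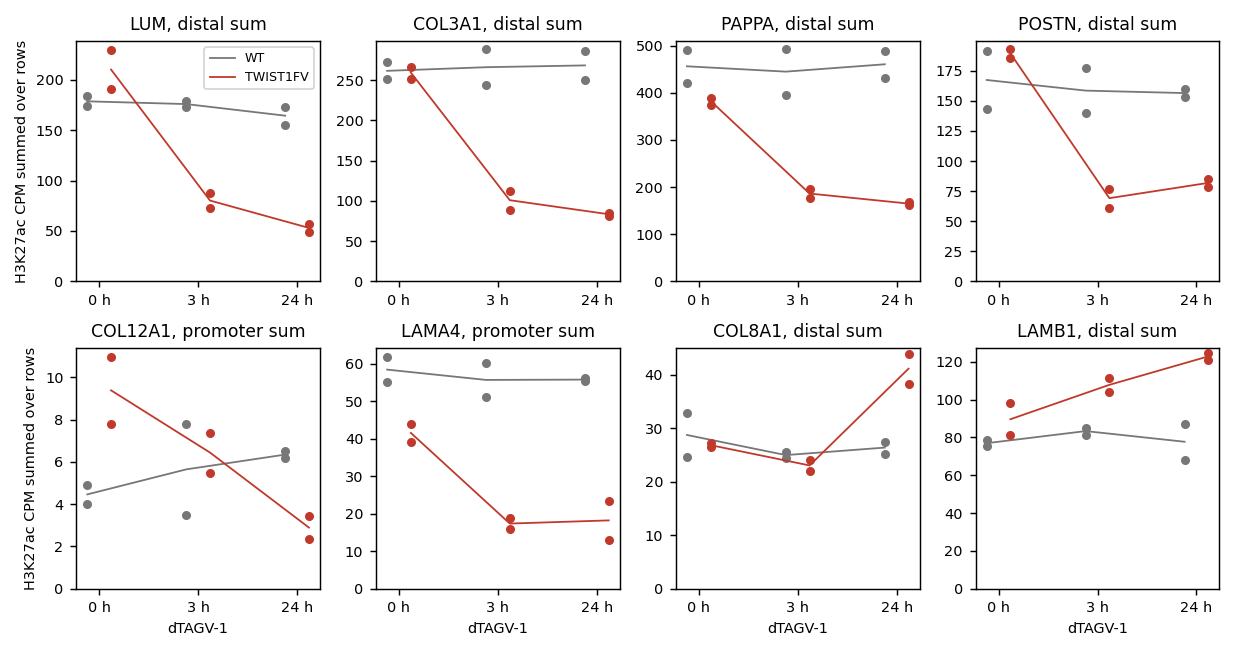
Summed H3K27ac (CPM) in each WT and TWIST1FV library at 0 h, 3 h and 24 h for the distal rows of LUM, COL3A1, PAPPA, POSTN, COL8A1 and LAMB1 and the promoter rows of COL12A1 and LAMA4. Points are libraries and lines join group means; TWIST1FV points of LUM, COL3A1, PAPPA and POSTN are below their own 0 h points and all WT points at 3 h and 24 h, those of PAPPA being below all WT points at 0 h too, while those of COL8A1 and LAMB1 are above WT at 24 h.

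The single rows given next had the largest falls among called rows with a mean level above the median of all tested rows, at most 1 row a gene, and all 8 were distal. The row in a PAPPA intron at chr9:116250784-116251284 (hg38), 81148 bp from a start and next to the PAPPA sequence shown above, had 47.4 and 47.4 CPM at 0 h, 5.40 and 9.33 CPM at 3 h and 1.17 and 0.529 CPM at 24 h. It thus lost most of its signal in 3 h and nearly all by 24 h, when the WT libraries stayed at 56.2 to 70.2 CPM. Its 24 h log2 change was -5.75 (SE 0.38, adjusted p = 8.0e-08), and that of TWIST1FV minus WT was -5.88. The 3 adjacent PAPPA rows had changes of -4.74, -4.69 and -4.68.

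An intergenic row 47490 bp from FBLN1 (chr22:45453915-45454748), which also carried V5 peaks in ALX1FV and ALX1FV ALX4-, had 55.7 and 49.5 CPM at 0 h, 11.9 and 10.8 CPM at 3 h and 3.27 and 2.38 CPM at 24 h (24 h log2 change -4.20, SE 0.27, adjusted p = 7.9e-08). WT libraries ranged over 42.9 to 51.2 CPM there. FBLN1 encodes fibulin 1, a binding partner of elastic fibres and basement membranes. An intergenic row 35618 bp from COL12A1 (chr6:75052422-75052922) had 22.5 and 16.2 CPM at 0 h, 5.96 and 7.68 CPM at 3 h and 1.40 and 1.59 CPM at 24 h (24 h log2 change -3.68, SE 0.38, adjusted p = 4.2e-06). The row in an exon of KERA listed under LUM (chr12:91055977-91056477), beside the window with 2 E-box words, had 56 and 45.1 CPM at 0 h, 13.3 and 8.23 CPM at 3 h and 5.71 and 6.61 CPM at 24 h (-3.03, SE 0.28, adjusted p = 1.6e-06). In all 3 rows the groups did not overlap, and the 24 h values were below the 3 h values.

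Other rows named by the same rule were at FBN1 (chr15:48657959-48658459, intergenic, -2.93), COL4A2 (chr13:110570957-110572213, intergenic, -2.90) and NID1 (chr1:236016136-236016636, intron, -2.74), all with log2 changes at 24 h. The FBN1 change was -4.90 without 24 h replicate 1 and -2.15 without 24 h replicate 2, and it was called in both fits. A TNC row (chr9:115099207-115099707), with a larger change (-3.24, adjusted p = 0.015), had a mean level below that median. The COL4A2 row had 22.1 and 16.1 CPM at 0 h, 5.96 and 2.74 CPM at 3 h and 2.68 and 2.38 CPM at 24 h, and the WT range was 17.2 to 22.5 CPM. The NID1 row had 12.3 and 11.1 CPM at 0 h, 4.12 and 3.02 CPM at 3 h and 1.98 and 1.45 CPM at 24 h, and in WT it ranged from 6.31 to 12.3 CPM. Both declined at each step, and neither overlapped its untreated values after treatment.

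A row in a COL14A1 intron, 55353 bp from a start, had 9.18 and 5.85 CPM at 0 h, 0.284 and 0.274 CPM at 3 h and 0.933 and 0.264 CPM at 24 h, with 2 to 8 counts a library after treatment. Its log2 change was -3.57 (SE 0.56, adjusted p = 2.6e-04) at 24 h (-4.71 without 24 h replicate 1 and -2.95 without 24 h replicate 2), and the WT range was 8.29 to 10.4 CPM. COL14A1 encodes undulin, a fibril-associated collagen.

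Promoter rows that fell at 24 h were those of LUM (2 rows, -0.81 and -1.50), LAMA4 (2 rows, -2.18 and -2.58), ELN (2 rows, -1.24 and -1.06), COL11A1 (-1.31), COL12A1 (-1.93), COL16A1 (-1.14) and FBN2 (-1.50), as log2 changes. The LAMA4 and FBN2 rows and the ELN row with -1.06 lay at transcript starts inside the gene. They began at chr6:112149767 and 112150335, chr5:128378156 and chr7:74042950. The outermost starts of these genes were at chr6:112254939, chr5:128659185 and chr7:74027789. The LAMA4 row at chr6:112149767-112150267, whose sequence with 1 CATCTG word is shown above and which had V5 peaks in ALX1FV and ALX1FV ALX4-, had 19.7 and 16.4 CPM at 0 h, 7.38 and 7.41 CPM at 3 h and 3.73 and 4.23 CPM at 24 h. The COL11A1 row, over an exon at its start, had 32.6 and 35.1 CPM at 0 h, 17 and 18.8 CPM at 3 h and 11.7 and 15.6 CPM at 24 h, and WT ranged over 33 to 39.7 CPM. The FBN2 row, at the second fibrillin gene, had 13.6 and 10.2 CPM at 0 h, 3.41 and 5.35 CPM at 3 h and 4.66 and 3.70 CPM at 24 h, so that its loss was already present at 3 h.

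The rising rows given next were named by the same rule, for the largest rises. That choice favours low starting levels, and starting levels of the other rising rows are not given. The row with the largest rise listed under LAMB1 lay in an intron of LAMB4 (chr7:108099859-108100359), 96646 bp from a start, and had 0.889 and 0.244 CPM at 0 h, 3.41 and 1.92 CPM at 3 h and 6.53 and 5.03 CPM at 24 h (24 h log2 change 3.38, SE 0.58, adjusted p = 6.7e-04). A row in a COL8A1 intron (chr3:99690597-99691097), whose window with 1 CAGCTG word is shown above, had 1.48 and 0.731 CPM at 0 h, 3.12 and 2.2 CPM at 3 h and 10.0 and 5.82 CPM at 24 h (2.86, SE 0.50, adjusted p = 7.1e-04). Each began with 2 to 10 counts a library, and both had a TWIST1 peak in WT cells. An unbound row in an FBN1 intron (chr15:48424049-48424549) rose by 2.37 and an unbound row in a GNG2 intron listed under NID2 (chr14:51960607-51961107) by 2.06, the latter call being lost without 0 h replicate 1 (1.62). Each size moved with the untreated library left out: without 0 h replicate 1 and without 0 h replicate 2 the change was 4.47 and 2.67 at LAMB1 and 1.78 and 3.47 at FBN1, and at COL8A1 it was 3.41 without 0 h replicate 1. Each of these was called. Against WT, the differences in change were 3.02 (SE 0.88, adjusted p = 0.023) at COL8A1 and 2.33 (SE 0.66, adjusted p = 0.018) at FBN1, and those at LAMB1 (adjusted p = 0.072) and NID2 (adjusted p = 0.13) did not pass.

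The difference between TWIST1FV and WT in their response was tested in 1 edgeR fit of all 36 libraries, with 1121 matrix rows tested. At 3 h 47 matrix rows differed, 43 falling more in TWIST1FV and 4 rising more, while over all 174645 rows 2.35% were called (0.253% higher, 2.1% lower). At 24 h 86 differed, 82 lower and 4 higher, beside 6.07% of all rows (1.16% higher, 4.92% lower). Of the rows that fell in TWIST1FV, 41 of 55 at 3 h and 78 of 109 at 24 h were among them, and of those that rose, 2 of 4 and 4 of 19. LUM (8 rows), PAPPA (6), COL5A1, COL12A1, LAMA4 and NID1 (5 each) had the most rows with a lower response at 24 h. At 3 h the count was 28 without TWIST1FV 0 h replicate 1 and 27 without WT 0 h replicate 1, WT 0 h replicate 2 or WT 3 h replicate 2.

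In WT cells given the same compound no matrix row was called at 3 h or 24 h of 840 tested (edgeR quasi-likelihood test; 0% of all rows at each time), and 37 and 36 had an unadjusted p under 0.05. The other 4 depletions were also without a called matrix row at either time. In ALX1FV, 0% of all rows were called at 3 h and 0% at 24 h; in ALX1FV ALX4-, 0% and 0.0279%; in PRRX1FV, 0% and 0.000827%; and in MSX1FNV, 0.00179% and 0.00448%. The matrix rows with an unadjusted p under 0.05 numbered 8 and 8 of 805 in ALX1FV, 36 and 54 of 880 in ALX1FV ALX4-, 29 and 39 of 833 in PRRX1FV, and 25 and 32 of 785 in MSX1FNV, at 3 h and 24 h. DESeq2 called none in these 5 lines. In ALX1FV ALX4-, where each replicate is a clone, the fit with the replicate as a block called 1 matrix row at 24 h, which fell. The median log2 change of TWIST1-bound matrix rows at 24 h was -0.01 in WT, -0.01 in ALX1FV, -0.04 in ALX1FV ALX4-, -0.03 in PRRX1FV and -0.06 in MSX1FNV. No promoter or distal sum of a matrix gene was called in these lines either, and at 24 h the sums with an unadjusted p under 0.05 numbered at most 3 of 36 promoters (MSX1FNV, where 3.14% of all promoter sums had one) and 6 of 39 distal sums (ALX1FV ALX4- and MSX1FNV, where 9.23% and 3.15% of all distal sums had one). Depletion of the tagged factors in the 4 homeodomain lines was not checked here as it was for TWIST1. The series holds V5 samples at 3 h for these lines, which were not analysed.

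Rows with a V5 peak were examined on their own. The 18 rows with an ALX1FV V5 peak had a median log2 change of -0.14 in ALX1FV at 24 h, from -0.63 to 1.42, and none was called, as among all 1517 ALX1FV V5 rows tested (median -0.10, 24 at an unadjusted p under 0.05). The 25 tested rows with a V5 peak in ALX1FV ALX4- had a median of -0.00 in that line at 24 h, none was called, and 6 had an unadjusted p under 0.05, when 12 of all 1587 such rows were called (0.756%), 18.0% had an unadjusted p under 0.05 and their median was -0.13. After TWIST1 depletion, 12 of the 18 ALX1FV V5 rows fell at 24 h (median -1.69), and so did 16 of the 26 rows of ALX1FV ALX4- (median -1.25). Over all V5 rows of these lines, 56.4% and 56.8% fell in TWIST1FV, with medians of -1.10 and -1.07. Most V5 rows of the 2 ALX1 lines at matrix loci thus fell in TWIST1FV and none was called in their own lines, and the difference between lines was not tested.

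Before treatment the edited lines differed from WT to varying degrees at matrix loci. TWIST1FV had no called matrix row at 0 h (0.0744% of all rows; 76 matrix rows at an unadjusted p under 0.05), and ALX1FV had 2, both higher (0.412%). ALX1FV ALX4- had 108, 41 higher and 67 lower, when 8.47% of all rows were called (3.17% higher, 5.3% lower). PRRX1FV had 22, 4 higher and 18 lower (2.65%; 0.855% higher, 1.8% lower), and MSX1FNV had 27, 10 higher and 17 lower (2.6%; 1.09% higher, 1.51% lower). These comparisons share the WT 0 h libraries, and the line, its clones and the absence of spike-in chromatin cannot be told apart in them. With library size alone the splits became 58 higher and 46 lower, 10 and 6, and 17 and 10, so the balance of directions rests on the scaling. Fits without 1 library called 56 to 69, 3 to 8 and 3 to 20 rows, each of the 4 libraries lowering the count by over 1.5 times in ALX1FV ALX4- and PRRX1FV, and MSX1FNV 0 h replicate 2 (3), WT 0 h replicate 1 (11) and WT 0 h replicate 2 (7) doing so in MSX1FNV. In ALX1FV the count was 0 without either WT library and 4 without either ALX1FV library.

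Most of the lower rows were TWIST1-bound in WT cells: 61 of 67 in ALX1FV ALX4-, 17 of 18 in PRRX1FV and 17 of 17 in MSX1FNV, against 8 of 41, 1 of 4 and 2 of 10 of the higher ones. Of all matrix rows 25.1% were bound. Whether the bound share of lower rows differs between matrix loci and the rest of the genome was not tested. In ALX1FV ALX4- the lower rows were spread over 26 genes, led by NID1 and PAPPA with 6 each and FN1 with 5, and the higher over 20 genes, led by LAMB1 with 6 and LOX with 5. LAMA4 had 5 lower rows in PRRX1FV and 5 in MSX1FNV. The COL12A1 row that fell after TWIST1 depletion (chr6:75052422-75052922) had 3.1 and 2.49 CPM in ALX1FV ALX4- against 19.7 and 18.1 CPM in WT, a log2 difference of -2.74 (SE 0.34, adjusted p = 1.4e-08). It was also lower in PRRX1FV, at 5.55 and 5.16 CPM, and in MSX1FNV, at 6.87 and 5.84 CPM, with log2 differences of -1.82 and -1.58. The PAPPA row (chr9:116250784-116251284) had 9.51 and 10.1 CPM in ALX1FV ALX4- against 58.4 and 63.7 CPM in WT (-2.64, SE 0.21, adjusted p = 4.8e-14).

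The rows lower in the homeodomain lines at 0 h overlapped those lost on TWIST1 depletion, which came from other libraries. Of the 67 rows lower in ALX1FV ALX4-, 45 also fell in TWIST1FV at 24 h (67.2% of the 67 and 41.3% of the 109). Over all rows the shares were 49.1% and 38.1%. In PRRX1FV 13 of 18 were shared (72.2%, and 11.9% of the 109, against 46.3% and 12.3% over all rows), and in MSX1FNV 13 of 17 (76.5% and 11.9%, against 42.8% and 9.54%). Among the higher rows of ALX1FV ALX4-, 9 of 38 tested in both also rose in TWIST1FV (23.7%, and 47.4% of the 19, against 16.7% and 16.0% over all rows). Of the higher rows of PRRX1FV 0 of 4 also rose, against 21.2% over all rows. In MSX1FNV 2 of 10 higher rows did (20%, against 23.9%). TWIST1 peaks themselves were still found in ALX1FV ALX4- at 229 of the 305 matrix sites (75.1%, Wilson 95% interval 69.9 to 79.6), against 66.3% of all 42318 sites. Untreated TWIST1FV had peaks in both replicates at 178 of the 305 (58.4%), against 49.7% of all sites. The lists differed in length, with 52890 and 43274 peaks in ALX1FV ALX4- and 33479 and 25034 in TWIST1FV.

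A minority of the TWIST1 sites at matrix loci had a peak in the 2 other cell types. RS4;11 cells had a TWIST1 peak at 51 of the 305 sites (16.7%, Wilson 95% interval 13.0 to 21.3), against 20.3% of all sites. In HEK293 cells given V5-TWIST1(WT) alone, 56, 44 and 74 of the 305 sites were overlapped in the 3 replicates, a mean of 19.0% ± 4.95 (SD, n = 3). With ALX4-Flag as well, 61, 83 and 99 were overlapped, a mean of 26.6% ± 6.26 (SD, n = 3). The difference of 7.54 percentage points was positive in all 3 replicate pairs (1.64, 12.8 and 8.2 points), but it was within the spread (exact permutation test, two-sided, p = 0.20, where 3 against 3 can reach 0.1). All sites went from 16.3% to 27.1%. Sites overlapped in all 3 replicates with ALX4 and in none without it numbered 9 of 305 (2.95%), against 5.00% of all sites, and 177 sites (58.0%, against 58.1%) were overlapped in no HEK293 list. The lists differed in length from 22465 to 65005 peaks, which moves these shares.

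Other matrix genes behaved in mixed ways. Of 78 further collagen, laminin, proteoglycan and matrix enzyme genes, 11 of 72 tested promoter sums fell and 2 rose in TWIST1FV at 24 h (18.1% called, against 4.28% of all genes), and 21 of 78 distal sums fell and 5 rose (33.3%, against 19.6%). The falling promoters included SPOCK1 (log2 change -2.04), LTBP1 (-1.77), MFAP2 (-1.75) and TIMP3 (-1.64), and the falling distal sums TIMP3 (-1.77), LAMA1 (-1.58) and COL15A1 (-1.52). MATN3 (1.53) and ADAMTS9 (0.73) rose at promoters, and SPARCL1 (1.34) and HAPLN1 (0.78), a cartilage link protein gene, rose at distal rows. The median log2 changes were 0.08 for promoters and -0.03 for distal sums. For these genes all rows within 100 kb were counted, so a row can belong to several of them.

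Some markers of other cell types moved with TWIST1 depletion. All 10 cranial neural crest markers had promoter H3K27ac, with a summed level of 1339 to 1783 CPM over the 36 libraries, and in TWIST1FV the mean was 1618 CPM at 0 h and 1534 CPM at 24 h, with MSX1 (log2 change -0.89) and PDGFRA (-0.55) called lower and TWIST1 (0.63) called higher. The epithelial list (4 of 4 with a promoter row) went from 28.7 and 25.7 CPM at 0 h to 54.6 and 52.5 CPM at 24 h in TWIST1FV, with KRT8 (log2 change 1.07) and EPCAM (0.95) called higher. CDH1 (1.09) and KRT18, which went the other way (-0.35), were not called. The melanocyte and glial list (5 of 5) went from 40.7 and 47.5 CPM to 71.4 and 69.7 CPM, with ERBB3 higher (0.82) and MITF lower (-1.80). The pluripotent list went from 293 and 251 CPM to 377 and 347 CPM, led by LIN28A, while its defining genes POU5F1 and NANOG had no promoter row in the tables. The neural (9.18 and 10.2 CPM to 12 and 12.2 CPM), endothelial (9.18 and 8.65 CPM to 11 and 13.2 CPM) and blood (2.37 and 3.90 CPM to 1.17 and 1.85 CPM) lists stayed below 20 CPM in every library. Their part in the changes at matrix loci was not tested.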

How the data were processed

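H3K27ac counts per merged ATAC peak were used as the authors deposited them, 1 table per line, with no normalization per the file headers. In every library at least 76.7% of counts of 20 or more were even, so both mates of a read pair may have been counted, and p-values rest on the spread between replicates. TWIST1, AP2a and V5 peak lists were deposited per sample in narrowPeak order, with fold enrichment and −log10 p and q values of the authors' peak caller. The submitters' processing notes name Bowtie2 2.4.1, SAMtools 1.10, MACS2 2.2.7.1, deepTools 3.5.0, hg38 and mm39 without giving their roles.

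Rows and locus sums were tested with edgeR 4.0.16 (R 4.3.3; quasi-likelihood, TMM scaling, filterByExpr) in each line and in 1 fit of all 36 libraries, with Benjamini-Hochberg adjustment over all rows or genes and a threshold of 0.05. Replicate number was no block in these fits. Promoter rows lay within 1000 bp of a GENCODE release 44 start. Peaks overlapped by at least 1 bp. CPM values use TMM-adjusted library sizes. Alternatives included DESeq2 1.42.0, library size alone, a 50 kb window, a 500 bp promoter, a threshold of 0.01 and fits without each library. The fits were tested on simulated data first.

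In ALX1FV, ALX1FV ALX4- and PRRX1FV the labels tie a replicate number to a clone, so numbers pair the samples there; deviations of same-numbered libraries correlated at 0.275 to 0.286, 0.0305 to 0.0442 and 0.0211 to 0.024. Python 3.11.15, pandas 2.3.3, NumPy 2.4.6, SciPy 1.17.1 and matplotlib 3.10.9 were used for the rest. Named genes were the 12 with most called rows at 24 h, those with a called promoter row or sum, the highest promoter and distal levels and those with no called row; the named single rows are the 8 called falls and 4 called rises with the largest changes at 24 h in TWIST1FV, at most 1 a gene, whose mean level exceeded the median of tested rows and whose replicates had the same sign. The members and lists were chosen with earlier results of these data known. Intervals cover counting error only, and no column of per-sample values was left unused (0).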

Additional observations from a re-analysis of the deposited data

Results flagged for a closer look

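The response to the compound differed between TWIST1FV and WT at 47 matrix rows at 3 h and at 86 at 24 h, tested as the difference of the 2 lines' changes in 1 edgeR quasi-likelihood fit of all libraries. In the same fit 2.35% of all 174645 rows were called at 3 h and 6.07% at 24 h. Whether the matrix shares differ from these was not tested.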

How the results depend on the processing

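Counts of matrix rows called in TWIST1FV moved by over 1.5 times at 3 h with the replicate block (113 against 59), in the fit of all 36 libraries (89), in a 50 kb window (38) and at a threshold of 0.01 (34), and at 24 h at the threshold of 0.01 (78 against 128). The replicate number is only a number in TWIST1FV, WT and MSX1FNV, and correlations of same-numbered deviations were 0.0916 to 0.162, 0.0432 to 0.0499 and 0.0872 to 0.102. The block called 176 rows at 24 h in TWIST1FV, 1 row in ALX1FV ALX4- at 24 h against 0, 7 and 8 promoter sums at 3 h and 24 h against 2 and 5, and 22 and 25 distal sums against 12 and 16. Library size alone called 1 promoter sum at 3 h. Against WT at 0 h, a fit of 4 libraries called 1 row in TWIST1FV against 0, 0 in ALX1FV against 2 and 52 in PRRX1FV against 22, and with the block 45 in PRRX1FV and 64 in MSX1FNV against 27.

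Leaving out 1 library gave 35 to 61 rows at 3 h and 81 to 122 at 24 h in TWIST1FV, and 27 to 43 and 61 to 97 for its difference from WT. At 0 h against WT it gave 0 to 4 rows in ALX1FV, 56 to 69 in ALX1FV ALX4-, 3 to 8 in PRRX1FV and 3 to 20 in MSX1FNV. Promoter sums numbered 1 to 2 and 3 to 4, and distal sums 7 to 13 and 10 to 16. The kept share of TWIST1 peaks differed by -78.4 to -72.8 points between lines and the HEK293 overlap by 4.59 to 10.8 points. None of the changes of single named rows and sums reversed sign in the alternatives run for them. The cause of each shift was not tested. The rising rows named at LAMB1 and COL8A1 began with 2 to 10 counts a library.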
